A study of Homo sapiens with 6 samples.

Results

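The genes described here encode the proteins of the mitochondrial ribosome, chosen by symbol as every entry of the authors' deposited table that begins with MRPL or MRPS and a digit, plus DAP3. They number 79 of the 15244 entries, with 49 in the large subunit (MRPL) and 30 in the small subunit (MRPS and DAP3). The rule uses symbols only. The series compared NCI-H1299 cells with a short hairpin RNA directed at ALDH18A1 (shALDH18A1, 3 samples) with cells of the same line given a control (shControl, 3 samples; the design text calls the control puro) by ribosome footprint sequencing, which reads mRNA stretches covered by ribosomes. NCI-H1299 is a human lung cancer line, labelled as lung adenocarcinoma, and ALDH18A1 encodes P5CS, the mitochondrial enzyme that begins proline synthesis from glutamate. The labels give no hairpin sequence, number of hairpins or time after delivery. The values come from 1 comparison table made by the authors, with a mean normalized count, a log2 fold change, its standard error (SE) and an adjusted p for each gene, and no values per sample were used here, so depth and replicate spread are unknown.

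The sources used here state neither which group is on top of the fold change nor whether it is a change in footprints or in footprints relative to mRNA. The name of the authors' deposited table holds the letters DTEG. These may stand for differential translation efficiency genes, that is footprints relative to mRNA, but they are not spelled out. Higher and lower below therefore give the sign in the authors' deposited table and not a direction between shALDH18A1 and shControl. ALDH18A1 itself did not settle the sign, since the authors' deposited table lists it at −0.19 ± 0.12 on the log2 scale (adjusted p = 0.173). A gene counts as called where the table's adjusted p is under 0.05, and each ± is the SE that the table lists. At this threshold the authors' deposited table had 28.9% of all entries higher and 29.4% lower, so that a call by itself does not set a gene apart. Of the markers of the labelled cell type, KRT8 and KRT18, keratins of simple epithelia, had mean normalized counts of 6396 and 6869 in the authors' deposited table and the mesenchymal filament gene VIM 22046. EPCAM and CDH1, 2 epithelial surface markers, were near the floor at 11.4 and 1.95, NKX2-1, a lung adenocarcinoma marker, was at 3.24, and NAPSA and SFTPB were not listed in the authors' deposited table. The fibroblast collagen gene COL1A1 had a mean normalized count of 26.9 and the endothelial gene PECAM1 1.56 in the authors' deposited table, where the leukocyte gene PTPRC was not listed.

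The mitochondrial ribosome translates the few mRNAs encoded by mitochondrial DNA, which code for central parts of the respiratory chain and of ATP synthase. Its RNA comes from mitochondrial DNA, whereas all of its proteins are encoded in the nucleus, made on cytosolic ribosomes and imported. Compared with its bacterial ancestor it has lost RNA and gained protein, so that its proteins fall into those with a bacterial homolog (named uL, bL, uS or bS) and those specific to mitochondria (mL or mS). The large subunit joins amino acids and holds the exit tunnel for the new chain, and the small subunit binds the mRNA and decodes it.

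Because the proteins are all encoded in the nucleus, the stretches just before their transcription starts were compared first. RefSeq promoter windows of 300 bases (GRCh38.p14, 250 before and 50 after the start) were at hand for 70 of the 79 genes. The ETS factor motif CCGGAAG, read on both strands (CTTCCGG), occurred in 29 of these 70 windows, or 41.4%, against 17.8% of the 11961 windows of genes in the table and 23 of 69 windows, or 33.3%, of cytosolic ribosomal protein genes. It occurred in 17 of 42 windows of large-subunit genes and 12 of 28 of small-subunit genes. By call it occurred in 2 of 11 windows of genes called higher, 13 of 32 of those called lower and 14 of 27 of those not called. Genes with the motif had a median log2 fold change of −0.17 (n = 29) and genes without it −0.15 (n = 41) in the authors' deposited table. The sequences below are the 160 bases before the start of 4 genes, shown because they are among the 8 highest or the 8 lowest called members, overlap no other annotated gene and hold the ETS letters, which are in capitals. MRPS26 (mS26, small subunit), higher at 0.66 ± 0.20 in the authors' deposited table, is read from chr20:3045892-3046051 (plus strand). MRPL54 (mL54, at the stalk of the large subunit), the lowest member at −1.09 ± 0.13 in the authors' deposited table, is read from chr19:3762522-3762681 (plus strand). MRPL33 (bL33m, large subunit), at −1.06 ± 0.17 in the authors' deposited table, is read from chr2:27771559-27771718 (plus strand), and MRPS21 (bS21m, small subunit), at −0.85 ± 0.10 there, from chr1:150293701-150293860 (plus strand). All are written in the direction of transcription and end at the base before the start.
MRPS26: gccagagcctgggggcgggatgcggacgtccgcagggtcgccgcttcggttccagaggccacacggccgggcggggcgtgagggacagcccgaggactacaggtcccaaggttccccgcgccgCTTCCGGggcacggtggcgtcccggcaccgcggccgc
MRPL54: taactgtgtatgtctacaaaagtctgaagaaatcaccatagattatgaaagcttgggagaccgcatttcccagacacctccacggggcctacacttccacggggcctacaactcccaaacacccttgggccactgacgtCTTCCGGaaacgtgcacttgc
MRPL33: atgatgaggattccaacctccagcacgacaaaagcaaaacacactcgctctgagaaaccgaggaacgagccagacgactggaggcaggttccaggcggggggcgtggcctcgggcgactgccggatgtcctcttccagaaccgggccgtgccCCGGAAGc
MRPS21: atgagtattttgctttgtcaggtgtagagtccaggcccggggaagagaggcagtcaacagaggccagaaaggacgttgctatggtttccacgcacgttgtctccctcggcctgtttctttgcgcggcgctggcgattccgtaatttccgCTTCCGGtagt
The same letters thus stood close to the start in a gene that was higher and in 3 that were lower.

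Other motifs were searched for in the same windows. The letters AANATGGCG (CGCCATNTT on the other strand), which resemble the motif of the factor YY1, were in 18 of 70 windows against 6.20% of all windows, but in only 3 of 70 where the window was limited to the 250 bases before the start, against 2.07% of all windows. These letters also hold an ATG, and most of the matches lay at or after the start. The core letters of the motif of NRF1, a regulator of nuclear genes for mitochondria, are GCGCATG, read as CATGCGC on the other strand, and were in 7 of 70 windows, against 7.18% of all windows. By call they were in 3 of 11 windows of genes called higher, 0 of 32 of those called lower and 4 of 27 of those not called, and the median log2 fold change in the authors' deposited table was 0.19 with the letters (n = 7) and −0.25 without them (n = 63). A longer form of the motif with 1 free position, searched for first, was in 8 of 70 windows, or 11.4%, against 10.8% of all windows. That form was in 1 of 11 windows of genes called higher, 3 of 32 of those called lower and 4 of 27 of those not called, with medians of −0.12 (n = 8) and −0.18 (n = 62) in the authors' deposited table, so that the split by call depended on the letters used. Of these motifs only the longer NRF1 form can contain another, the NRF1 core letters. All were chosen after the fold changes had been seen. A start with C and then 4 pyrimidines, the letters of a terminal oligopyrimidine mRNA, was annotated in 5 of 70 members, or 7.14%, against 5.09% of all windows and 44 of 69 cytosolic ribosomal protein genes. The mitochondrial ribosomal protein genes were thus near the background for the start that most cytosolic ribosomal protein genes carry.

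Over the whole mitochondrial ribosome, more genes were lower than higher, by small amounts. Of the 79 genes, 15 were called higher, 35 lower and 29 not called in the authors' deposited table. That is 63.3% called, 19.0% higher and 44.3% lower, against 58.4% of all entries, 28.9% higher and 29.4% lower. All but MRPL55 and MRPS36 lay at or above the median mean normalized count of the table, 150.2, and among entries of that abundance 71.8% were called, 30.9% higher and 40.9% lower. Read against genes of like abundance, the share of members called lower was thus near the background and the share called higher was below it. The median log2 fold change of the 79 was −0.15, with quartiles of −0.45 and 0.16, in the authors' deposited table, beside 0.02 (quartiles −0.54 and 0.71) for all entries and −0.10 for entries at or above the median abundance. Differences between members were larger than their errors: the median SE was 0.11 (range 0.06 to 0.23), while the fold changes had an SD of 0.58 across genes. The authors' deposited table put 52 of the 79 within 0.5 of 0 on the log2 scale. A change of at least 1 on that scale was reached by 2 genes on the higher side and 6 on the lower side, all of them called, against 14.7% and 8.97% of all entries.

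**Figure D1:**
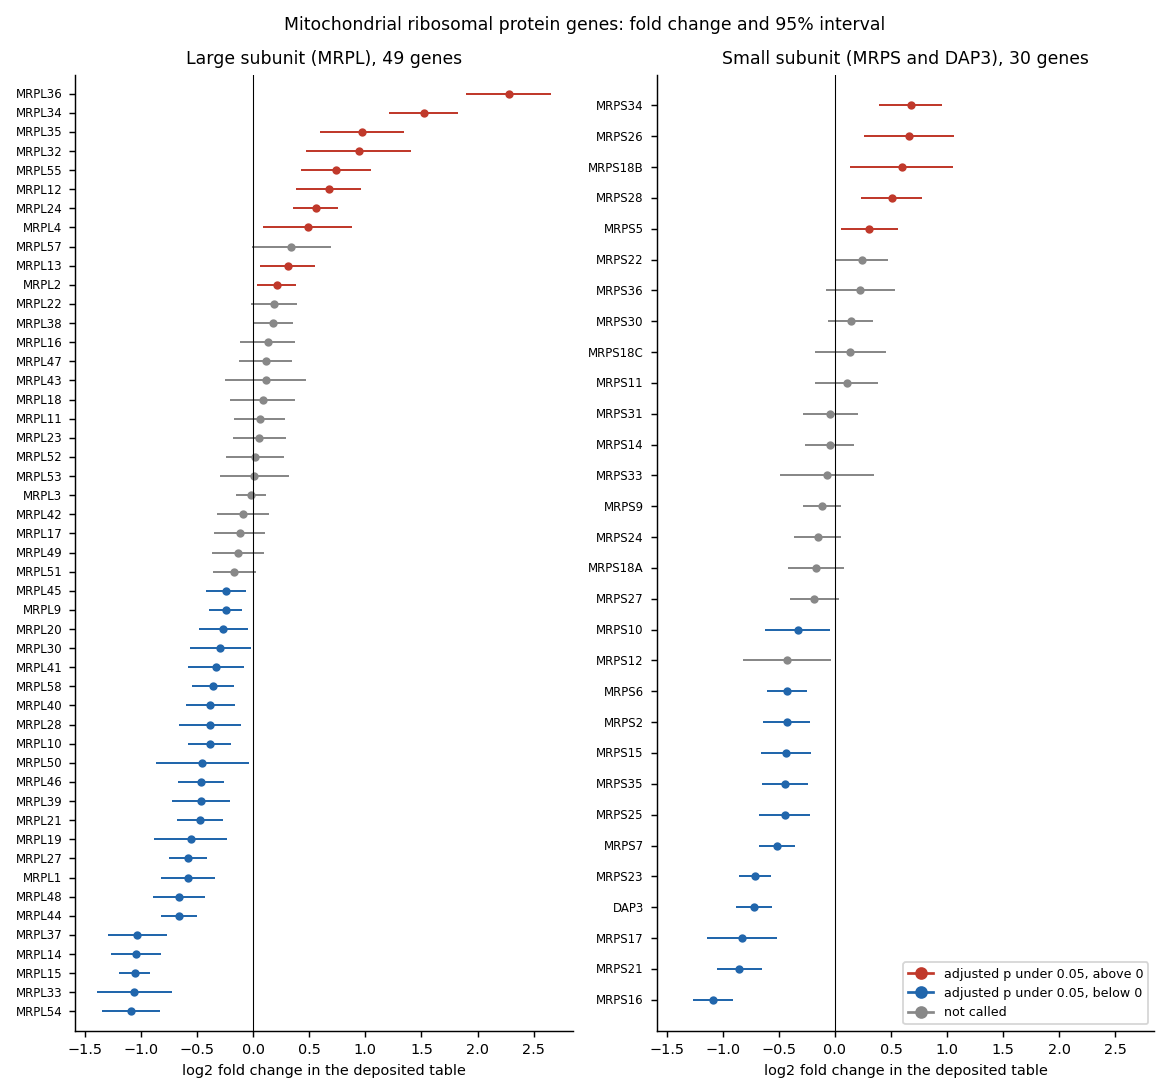
Log2 fold change in the authors' deposited table (horizontal axis) of each of the 49 large-subunit genes (left) and 30 small-subunit genes (right), ordered by value; points are the fold changes and lines their 95% intervals, coloured by call at an adjusted p under 0.05. MRPL36 at 2.28 and MRPL34 at 1.52 stand above all others, and the lowest values of both panels lie close to −1.09 and −1.08.

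Mean normalized counts of the members ran from 100.9 for MRPS36 to 3276 for MRPL51 in the authors' deposited table, with a median of 556. These counts are not per length and do not rank the genes by level. Across the 79 genes, which are not independent replicates, abundance and fold change had a Spearman's rho of −0.12, the same as over all 15244 entries.

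**Figure D2:**
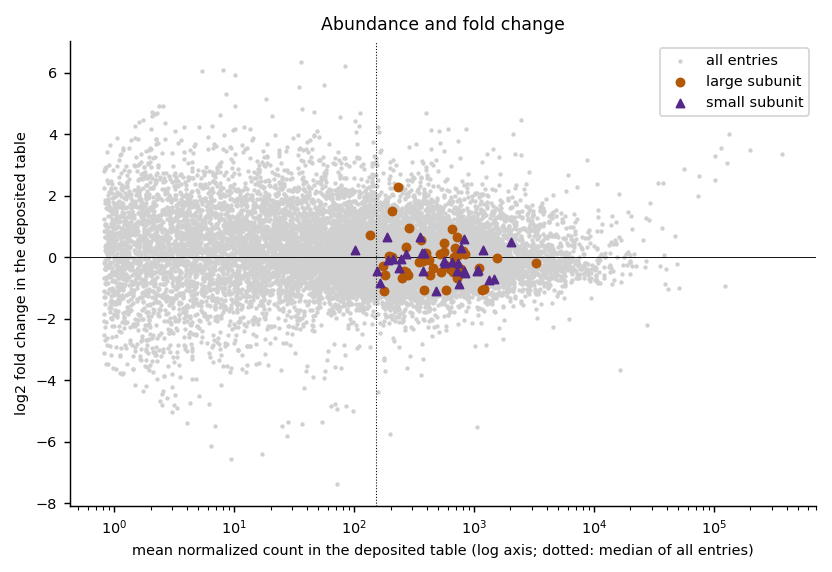
Log2 fold change (vertical axis) against mean normalized count (horizontal, log axis) for all 15244 entries of the authors' deposited table (grey), the 49 large-subunit genes (circles) and the 30 small-subunit genes (triangles). The dotted line is the median count of all entries, 150.2, and all but 2 members lie to its right.

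The median log2 fold change was −0.13 over the 49 large-subunit genes and −0.16 over the 30 small-subunit genes in the authors' deposited table, a difference of 0.03. The quartiles were −0.46 and 0.18 in the large and −0.44 and 0.14 in the small subunit. In the large subunit 10 genes were called higher, 23 lower and 16 not called, and in the small subunit 5 higher, 12 lower and 13 not called. As shares, 20.4% and 16.7% were higher and 46.9% and 40.0% lower, in the same order. The sign of the difference of medians turned when members that overlap another gene were left out (−0.12), when members with a pseudogene copy were left out (−0.08) and when the 4 highest members were left out (−0.08). The SD across genes was 0.65 in the large and 0.46 in the small subunit, and leaving out the 4 highest large-subunit genes, chosen after their values were seen and therefore bound to lower it, gave 0.46. None of the 30 small-subunit genes chosen by symbol reached beyond 0.68 on the higher side in the authors' deposited table, whereas AURKAIP1, a small-subunit protein with another name, was at 0.78 ± 0.12 there. Since genes of a subunit are not replicates of a condition, no test was made between the subunits.

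**Figure D3:**
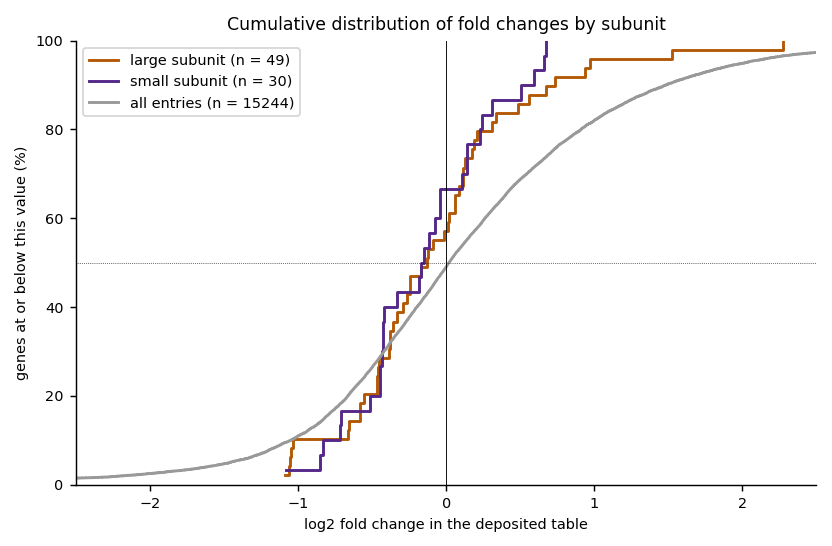
Share of genes (vertical axis, percent) at or below each log2 fold change (horizontal axis, shown from −2.5 to 2.5) for the large subunit (n = 49), the small subunit (n = 30) and all entries (n = 15244) of the authors' deposited table. The curves of the subunits cross 50% at −0.13 and −0.16 and, of these 79 genes, those past 0.68 are in the large subunit.

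In the large subunit the class with a bacterial homolog had shares of calls near the background, with 33.3% higher and 40.0% lower against 30.9% and 40.9% of entries of like abundance. The mitochondria-specific class had 0 of 19 higher and 57.9% lower. Of the 30 genes with a bacterial homolog, 10 were higher, 12 lower and 8 not called (median 0.06 on the log2 scale), and of the 19 mitochondria-specific genes 0 were higher, 11 lower and 8 not called (median −0.33) in the authors' deposited table. At an unadjusted p under 0.05, 1 of the 19 was higher, MRPL38 of the central protuberance at 0.18 ± 0.09. Among genes that overlap no other gene, 5 of 16 against 0 of 13 were higher. Among genes without a pseudogene copy the counts were 6 of 18 against 0 of 9. Any part of the 19 genes had to give 0, so these subsets add no support for the split between the classes. That split was not present in the small subunit. There 2 of 16 genes with a bacterial homolog and 3 of 13 mitochondria-specific genes were higher, with medians of −0.38 and −0.07. Subunits here are by symbol, so the 13 include MRPS18A (mL66) and MRPS30 (mL65), which belong to the large subunit in the structure. Counted by structure, the mitochondria-specific class of the large subunit had 0 of 21 higher and 11 (52.4%) lower, with a median of −0.24. GADD45GIP1, a mitochondria-specific large-subunit protein whose symbol keeps it out of the 79, was called higher with 0.44 ± 0.16 in the authors' deposited table (adjusted p = 0.0105).

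The 4 highest members were MRPL36, MRPL34, MRPL35 and MRPL32, all large-subunit proteins with a bacterial homolog, a grouping seen only after their values were known. MRPL36 (bL36m, Entrez ID 64979, chromosome 5 from 1798385 to 1801434 in GRCh38) was at 2.28 ± 0.19, a 4.85-fold difference, with a mean normalized count near 232 per the authors' deposited table (adjusted p = 2.50e-32). Its 95% interval ran from 1.91 to 2.65, and 96.6% of all entries lay below it. MRPL34 (bL34m, chromosome 19 from 17292573 to 17306843) followed at 1.52 ± 0.15, a 2.87-fold difference, with a mean normalized count near 204 per the authors' deposited table (adjusted p = 1.60e-22). MRPL35 (bL35m) was at 0.97 ± 0.19 in the authors' deposited table (adjusted p = 8.12e-07). MRPL32 (bL32m), which a protease of the inner membrane has to trim before it joins the ribosome, stood at 0.94 ± 0.23 in the authors' deposited table (adjusted p = 0.000158). The intervals of MRPL35 and MRPL32 overlap, so their order is not settled, while that of MRPL36 lies wholly above both. MRPL33 (bL33m), of the same class, went the other way at −1.06 ± 0.17 in the authors' deposited table (adjusted p = 7.94e-10). With the 4 highest genes left out, the median of the large subunit was −0.24 and 6 of its genes were called higher.

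Next in order, MRPL55 (bL31m) was at 0.74 ± 0.15 and MRPL12 (bL12m), which forms the flexible stalk that calls in translation factors, at 0.67 ± 0.14 in the authors' deposited table (adjusted p = 5.43e-06 and 7.18e-06). MRPL24 (uL24m) at 0.56 ± 0.10, MRPL4 (uL4m) at 0.48 ± 0.20, MRPL13 (uL13m) at 0.31 ± 0.12 and MRPL2 (uL2m) at 0.21 ± 0.09 completed the 10 large-subunit genes called higher in the authors' deposited table. In bacteria uL2 and uL4 are among the proteins that reach deep into the ribosomal RNA.

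The 5 lowest large-subunit genes spanned 0.05 on the log2 scale. MRPL54 (mL54, chromosome 19 from 3762682 to 3767565) was at −1.09 ± 0.13, a 2.13-fold difference, with a mean normalized count near 178 per the authors' deposited table (adjusted p = 1.80e-16). MRPL15 (uL15m) was at −1.05 ± 0.07 (adjusted p = 4.72e-56), the smallest p of all members, at a mean normalized count of 1164 in the authors' deposited table. MRPL14 (uL14m), which lies at the face that meets the small subunit, was at −1.05 ± 0.11 and MRPL37 (mL37) at −1.03 ± 0.13 in the authors' deposited table (adjusted p = 2.39e-20 and 1.06e-14). With MRPL33 these are the 5 large-subunit genes below −1, and their order is not settled by their SEs. MRPL44 (mL44), which carries a ribonuclease fold, was at −0.66 ± 0.08 and MRPL58 (mL62), a peptidyl-tRNA hydrolase that became part of the ribosome, at −0.36 ± 0.09 in the authors' deposited table. Both were called. MRPL3 (uL3m) was at −0.02 ± 0.06, the smallest SE of all members, and its interval therefore allows little change in the authors' deposited table.

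By place on the ribosome the groups hold 4 to 6 genes each, too few to read their shares against the 40.9% of entries of like abundance that were lower. Of the 6 genes of the central protuberance, the crown of the large subunit, 4 (66.7%) were called lower, 0 higher and 2 not called (median −0.42; 1 higher at an unadjusted p under 0.05): MRPL48 (−0.66 ± 0.12), MRPL27 (−0.58 ± 0.08), MRPL46 (−0.46 ± 0.10) and MRPL40 (−0.38 ± 0.11) in the authors' deposited table. MRPL18 (uL18m) of the same structure was at 0.08 ± 0.14 and not called. Genes of the exit tunnel were close to 0 (median 0.11), with MRPL24 higher, MRPL45, the anchor to the inner membrane, lower at −0.24 ± 0.09, and MRPL22 (0.19 ± 0.10), MRPL23 (0.06 ± 0.11) and MRPL47 (0.11 ± 0.11) not called in the authors' deposited table. The 5 stalk genes went apart: MRPL12 was higher, MRPL54 and MRPL10 (uL10m, −0.39 ± 0.09) were lower, and MRPL11 (0.06 ± 0.11) and MRPL53 (0.01 ± 0.15) were not called in the authors' deposited table. MRPL10 and MRPL12, which bind each other in the stalk, were thus called with opposite signs.

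**Figure D4:**
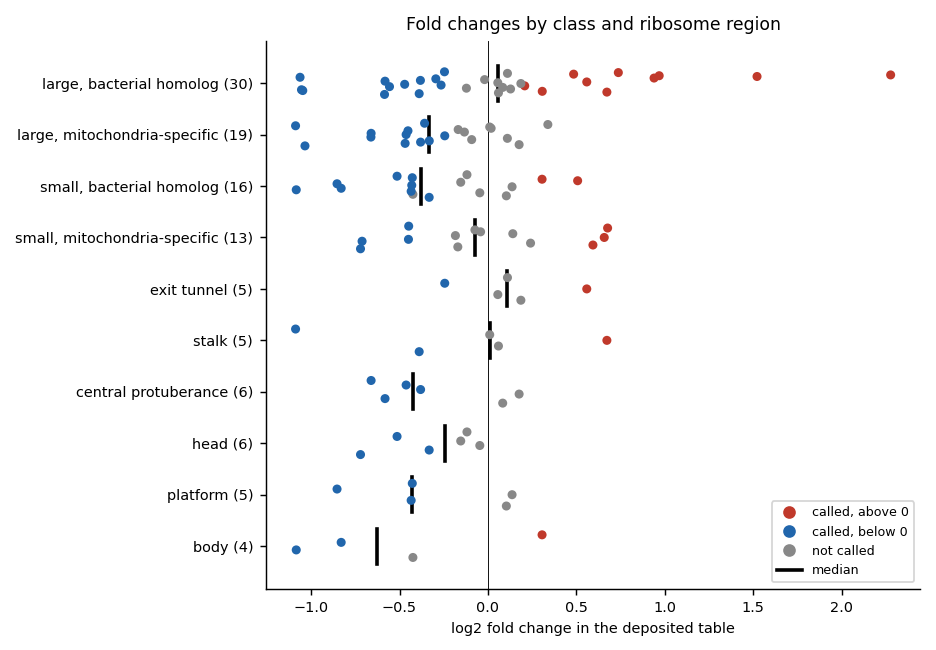
Log2 fold change in the authors' deposited table (horizontal axis) of members grouped by subunit and class (upper 4 rows) and by place on the ribosome (lower 6 rows), with the number of genes in brackets; each point is a gene, coloured by call, and the black bar is the median. The row of mitochondria-specific large-subunit genes has a median of −0.33 and holds no gene called higher, and points past 0.68 occur only among large-subunit genes with a bacterial homolog.

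In the small subunit MRPS16 (bS16m, chromosome 10 from 73248849 to 73252644) was the lowest, at −1.08 ± 0.09, a 2.12-fold difference, with a mean normalized count near 480 per the authors' deposited table (adjusted p = 1.37e-34). Its homolog is needed for assembly of the small subunit in bacteria, and MRPS16 is a known disease gene of mitochondrial translation in humans. MRPS21 (bS21m) was at −0.85 ± 0.10 and MRPS17 (uS17m) at −0.83 ± 0.15 in the authors' deposited table (adjusted p = 4.35e-17 and 2.89e-07). DAP3 (mS29), a GTP-binding protein of the head that was first described in cell death, was at −0.72 ± 0.08, a 1.65-fold difference, with a mean normalized count near 1327 per the authors' deposited table (adjusted p = 1.89e-20). MRPS23 (mS23) was close to it at −0.71 ± 0.07, and MRPS7 (uS7m) stood at −0.51 ± 0.08 in the authors' deposited table. On the higher side, MRPS34 (mS34) was at 0.68 ± 0.14 and MRPS26 (mS26) at 0.66 ± 0.20 in the authors' deposited table (adjusted p = 3.63e-06 and 0.00225). MRPS28 (bS1m) at 0.51 ± 0.13 and MRPS5 (uS5m), which lines the path of the mRNA in bacteria, at 0.31 ± 0.13 were also called higher in the authors' deposited table.

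By place, all 6 head genes had a negative value, of which 3 (50%) were called lower (MRPS7, DAP3 and MRPS10 at −0.33 ± 0.14) and 0 higher, also at an unadjusted p under 0.05 (median −0.24 in the authors' deposited table). Of the 5 platform genes, 3 (60.0%) were lower and 0 higher, also at an unadjusted p under 0.05: MRPS21, MRPS15 (−0.43 ± 0.11) and MRPS6 (−0.43 ± 0.09) in the authors' deposited table. Of the 4 body genes MRPS16 and MRPS17 were lower, MRPS5 was higher, and MRPS12 (uS12m), the protein of the decoding centre, missed the threshold at −0.42 ± 0.20 in the authors' deposited table (adjusted p = 0.0514).

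The MRPS18 family holds 3 paralogs that descend from a common bacterial gene. MRPS18B (mS40) was called higher at 0.59 ± 0.23, MRPS18C (bS18m) was not called at 0.14 ± 0.16 and MRPS18A (mL66) at −0.17 ± 0.12 was not called either in the authors' deposited table (adjusted p = 0.0194, 0.477 and 0.227). The 95% intervals of MRPS18B (0.14 to 1.05) and MRPS18C (−0.17 to 0.45) overlap, as do those of MRPS18C and MRPS18A (−0.41 to 0.07). Those of MRPS18B and MRPS18A do not overlap. No difference between the paralogs was tested. MRPS18A and MRPS30 (mL65) keep a small-subunit name but belong to the large subunit in the structure, and MRPS30 stood at 0.14 ± 0.10, not called, in the authors' deposited table (adjusted p = 0.214). MRPS36, now named KGD4, is a subunit of the oxoglutarate dehydrogenase complex and no part of the ribosome, and the authors' deposited table lists it at 0.23 ± 0.15, not called (adjusted p = 0.202 in the authors' fit across all genes, which has the column layout of DESeq2). With MRPS18A and MRPS30 counted in the large subunit and MRPS36 left out, the medians were −0.13 for the large and −0.18 for the small subunit, and no count of calls in either subunit changed, since none of the 3 was called.

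Reads shared with other genes could enter some of these values, which was not tested. The counting settings, including the use of strand, are not given. The annotated spans of 33 members overlap another gene, and in 18 of them an overlapping gene is itself in the table, giving 19 pairs. MRPL36 overlaps NDUFS6, a complex I gene on the opposite strand, by 28 bases, and NDUFS6 was lower at −0.26 ± 0.10 in the authors' deposited table, against 2.28 for MRPL36. MRPL34 overlaps ABHD8 by 10853 bases on opposite strands, and ABHD8 also had a positive value, 0.44 ± 0.20, in the authors' deposited table. MRPL14 and TMEM63B differed in sign (−1.05 against 0.43 ± 0.08), as did MRPS6 and SLC5A3, a myo-inositol transporter gene on the same strand (−0.43 against 1.52 ± 0.15), whereas MRPL37 and SSBP3 were both lower (−1.03 against −0.70 ± 0.16) in the authors' deposited table. In 8 of the 19 pairs both genes were called, with the same sign in 4. Overlapping genes not listed in the authors' deposited table could not be compared. Thus MRPS28 shares 111543 bases with TPD52-MRPS28, and MRPS16 shares 3796 bases with DNAJC9-AS1 on the opposite strand. Of the members, 46 overlap no annotated gene, and among these 8 were higher and 20 lower.

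**Figure D5:**
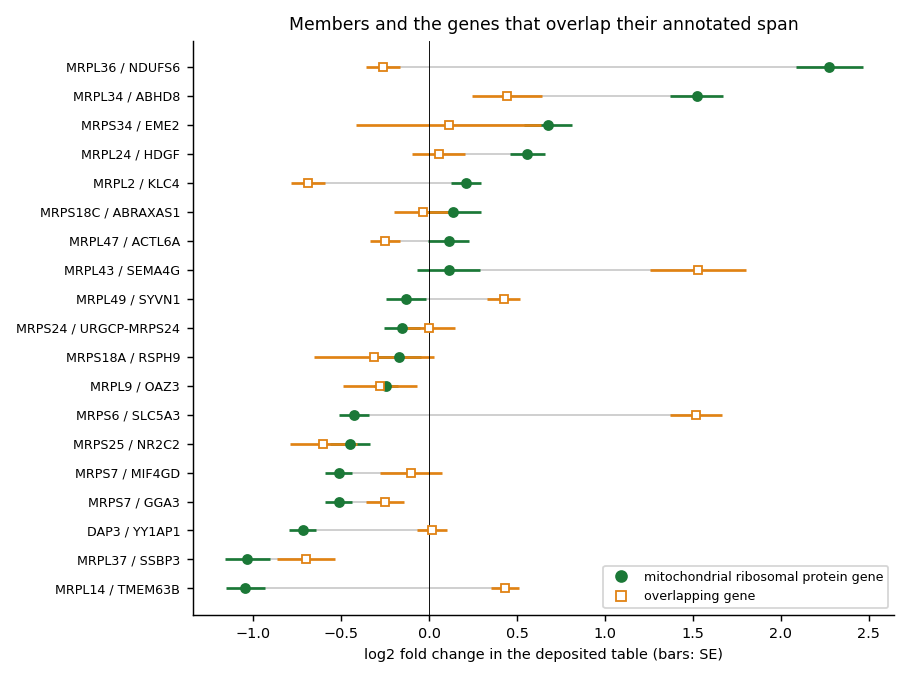
Log2 fold change in the authors' deposited table (horizontal axis, bars are the SE) of 18 members (filled circles) and the genes that overlap their annotated spans (open squares), 1 row per pair, ordered by the member's value. MRPL36 at 2.28 lies far from NDUFS6 at −0.26, and SEMA4G at 1.53 and SLC5A3 at 1.52 lie far from MRPL43 at 0.11 and MRPS6 at −0.43.

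Pseudogenes named after a member, to which short footprints could also map, are annotated for 43 of the 79 genes, 108 copies in all and up to 9 for MRPS21. In the small subunit 11 of the 12 genes called lower had such a copy, as did 21 of all 30. Of the 21 small-subunit genes with a copy 11 were lower and 2 higher, and of the 9 without a copy 1 was lower, MRPS2 (uS2m) at −0.43 ± 0.10, and 3 were higher in the authors' deposited table. In the large subunit 10 of 22 genes with a copy and 13 of 27 without were lower. The share lower was 52.4% of the 21 small-subunit genes with a copy, against 40.9% of entries at or above the median abundance. The 9 genes without a copy are too few to read as a share. The part of pseudogene copies in the small-subunit values was not tested.

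Other genes of mitochondrial translation did not share a sign. Neither did all entries, of which 28.9% were higher and 29.4% lower. Of the 4 ribosomal proteins with other names, AURKAIP1 (mS38, 0.78 ± 0.12), PTCD3 (mS39, 0.26 ± 0.09) and GADD45GIP1 were called higher and CHCHD1 (mS37, −0.25 ± 0.14) was not called in the authors' deposited table. Of 25 assembly factors, 6 (24%) were higher, 9 (36%) lower and 10 not called (median log2 fold change −0.03 per the authors' deposited table). The lowest were YBEY, an endonuclease family protein (−1.61 ± 0.17), NGRN (−1.47 ± 0.12), RBFA, a maturation factor of the small subunit (−1.09 ± 0.14), and RCC1L (−1.06 ± 0.08), and the highest was METTL17, which acts in small-subunit assembly (1.13 ± 0.13), in the authors' deposited table. NGRN, RCC1L and the pseudouridine synthase RPUSD4 (−0.55 ± 0.09), which work together on the RNA of the large subunit, were lower, whereas FASTKD2 of the same module was called higher at 0.50 ± 0.17 in the authors' deposited table (adjusted p = 0.00543). Of 16 translation factors 3 (18.75%) were higher, 5 (31.25%) lower and 8 not called (median −0.02). TUFM, which brings charged tRNAs to the ribosome, was higher at 0.73 ± 0.12, and LRPPRC, which keeps mitochondrial mRNAs stable, was lower at −1.15 ± 0.06 in the authors' deposited table.

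The mRNAs that the mitochondrial ribosome reads had larger values than nearly all genes of its proteins. All 13 mitochondrially encoded mRNAs were called higher, with log2 fold changes from 1.78 to 4.01 and a median of 3.08 per the authors' deposited table, and MRPL36 was the only member that reached into this range. The SEs of these 13 ran from 0.15 to 1.08 (median 0.38), against at most 0.23 among the members, so their values are less precise. Cytosolic ribosomal protein genes, made up of 87 entries, had 2 higher, 43 lower and 42 not called (median −0.29), so that 2.30% were higher there against 19.0% of the mitochondrial ribosomal protein genes. Their SD across genes was 0.36, against 0.58 in the mitochondrial set. Nuclear-encoded complex I subunits, 37 genes, had 13 higher (35.1%), 12 lower (32.4%) and 12 not called (median 0.09). Of all entries, 28.9% were higher and 29.4% lower. All 37 complex I genes and 84 of the 87 cytosolic entries lay at or above the median abundance, where 30.9% of entries were higher and 40.9% lower. No test was made between these sets.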

How the data were processed

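Ribosome footprints of NCI-H1299 cells were measured in 3 shALDH18A1 and 3 shControl samples, grouped by title. Per the submitters' processing notes, fastp 0.23.2, STAR 2.7.10a and featureCounts were used with hg38; their settings, the annotation, strand, footprint lengths and removal of ribosomal RNA are not given. The deposited mean is, per the file headers, a normalized signal for each gene. The deposited fold change and SE were taken as log2 from the column layout. The deposited statistic is a score equal to fold change over SE, and the deposited p-value is its two-sided normal p, with Benjamini-Hochberg adjustment over all 15244 entries (largest difference 7.42e-06). Columns per sample left out: 0.

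From these, calls at an adjusted p under 0.05, as deposited, were counted for the members by role, and set beside all entries. Intervals of 95% use the normal quantile. No test was run on the list, because genes are not replicates; p-values rest on the authors' fit, which was not rerun, and nothing says that samples came from separate cultures. Full statistics were given for the 8 highest and 8 lowest called members, the MRPS18 paralogs, DAP3, MRPS30 and MRPS36; other members were named by role. Members, lists and roles were chosen with earlier results of these data known. Of the 79 genes, 78 matched RefSeq (GRCh38.p14) by Entrez ID and 1 by older symbol, for spans, pseudogenes and promoters. Alternatives were stricter and looser thresholds, other adjustments, centring, abundance, overlap, pseudogenes and structural subunit. The adjustments were tested on simulated data. A marker of the line is not reported here. Tools were Python 3.11.15, pandas 2.3.3, scipy 1.17.1, numpy 2.4.6 and, for figures, matplotlib 3.10.9.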

Additional observations from a re-analysis of the deposited data

How the results depend on the processing

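Under 12 alternatives, 55 of 85 values stayed within 1.5 times the reported count within a typical SE of a gene (0.12 for the large and 0.11 for the small subunit) of the reported median, or, for the difference of medians, within 0.16, the root of the summed squares of both SEs. The difference changed sign in 3 of the 12 alternatives, as given above. More members were lower than higher in all 10 alternatives that gave both counts. Over all entries more were also lower than higher after centring (4605 against 4328 of 15244). The same held at or above the median abundance (3161 against 2390 of 7622). With a log2 fold change of at least 1 required, 2 members were higher and 6 lower, against 14.7% and 8.97% of all entries. Of these members, 2 and 5 were in the large subunit and 0 and 1 in the small subunit. Bonferroni adjustment left 7 higher and 18 lower, with 6 and 11 in the large and 1 and 7 in the small subunit. An adjusted p under 0.01, or Benjamini-Yekutieli adjustment, left 3 small-subunit genes higher. The shares of all entries called under Bonferroni and under these settings were not computed, so the counts there have no background beside them. Leaving out members that overlap another gene, which removes 33 genes, gave 8 higher and 20 lower, with 5 and 14 in the large and 3 and 6 in the small subunit. Leaving out members with a pseudogene copy, which removes 43 genes, gave 9 higher and 14 lower, with 6 and 13 in the large and 3 and 1 in the small subunit. The median of the small subunit was −0.046 under each of these removals and −0.31 as a mean weighted by the inverse squared SE. Without MRPL32, MRPL34, MRPL35 and MRPL36, an alternative chosen after seeing the data, 6 large-subunit genes were higher. Without a pseudogene copy, 33.3% of 9 small-subunit genes were higher and 11.1% lower, against 16.7% and 40.0% of 30, and the cause was not tested. Centring shifted all fold changes by −0.02. No paired analysis was possible because the table holds no values per sample, and for the same reason no replicate could be left out. With no depth per library, the deposited SE is the only measure of precision.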
